A study of Rattus norvegicus with 16 samples.

Results

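Ccn1, Ccn2 and Ccn5 are 3 genes of the CCN family of matricellular proteins, and their RNA was followed through rat hearts with an infarct and a hydrogel. The 3 genes were taken by symbol from the deposited tables, which hold 17085 genes. All 3 passed the filter on low counts, which left 11376 genes for testing. Bulk RNA sequencing measured 16 libraries of the tissue named the infarct zone, 4 in each of 4 groups. Sham rats were the controls without ligation. In MI rats the left anterior descending (LAD) coronary artery was tied off. MI_soft and MI_stiff rats had the same ligation and received a soft or a stiff hydrogel in the heart muscle. The labels give no strain, sex, age, time after ligation or gel composition. The protocol text names the injured groups with the abbreviation MI/R, so whether blood flow was restored is also not settled here. Nothing in the labels ties a library to its own animal, and the p-values therefore measure the spread between libraries, which may be technical. The question the groups address is how an injected gel, and its stiffness, changes the infarct.

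CCN proteins are secreted, cysteine-rich proteins that lie in the extracellular matrix without building it. They bind integrins, heparan sulfate proteoglycans and LRP receptors, and they alter how cells answer growth factors. CCN2, long called connective tissue growth factor, is known as a companion of TGF-beta in fibrosis, and CCN1 as an early response gene that acts in adhesion, vessel growth and fibroblast senescence. CCN5 lacks the carboxy-terminal module that its relatives carry and is known in the heart as a counterpart of CCN2. Ccn1 and Ccn2 are textbook targets of YAP and TAZ, the mechanically controlled partners of the TEAD transcription factors.

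The promoters of Ccn1 and Ccn2 are shown because these genes are standard readouts of TEAD activity and moved differently here. The sequences are from RefSeq on build GRCr8, whose promoter table held 3 of the 6 family genes and 2 of the 3 genes followed here. Each run is the 250 bases before the annotated start, 5′ to 3′ on the gene's strand, which is the minus strand for both. Ccn1 lies at chr2:237225690-237225939 and Ccn2 at chr1:22624615-22624864. Capitals mark the TEAD letters CATTCC or, on the other strand, GGAATG.
Ccn1: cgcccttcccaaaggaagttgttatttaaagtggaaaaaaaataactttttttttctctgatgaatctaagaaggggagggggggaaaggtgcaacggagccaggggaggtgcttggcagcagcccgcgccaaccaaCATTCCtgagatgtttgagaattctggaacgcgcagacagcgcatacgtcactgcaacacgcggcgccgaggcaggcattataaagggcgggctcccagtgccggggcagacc
Ccn2: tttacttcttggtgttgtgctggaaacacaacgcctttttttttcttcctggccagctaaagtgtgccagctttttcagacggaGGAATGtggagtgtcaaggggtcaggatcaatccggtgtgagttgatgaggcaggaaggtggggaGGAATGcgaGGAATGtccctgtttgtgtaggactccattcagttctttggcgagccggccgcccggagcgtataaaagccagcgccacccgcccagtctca
Ccn1 held 1 match, at -113 to -108 from the start. Ccn2 held 3, at -166 to -161, -101 to -96 and -92 to -87, all read on the other strand. Of 27457 promoter windows of 300 bases, 250 before and 50 from the start, 13.9% held at least 1 such match and 0.106% held 3 or more. The SMAD letters CAGAC, searched on both strands, occurred 2 times in the window of each gene and in 50.0% of all windows. TATAAA, also searched on both strands, occurred once in each gene, at -34 to -29 in Ccn1 and at -31 to -26 in Ccn2, and in 14.3% of windows. Neither window held the AP-1 letters TGANTCA, which 7.33% of windows held, or a CArG box, which 1.64% held. No match overlapped a match of another motif. A match of letters does not show that a factor binds there.

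**Figure D1:**
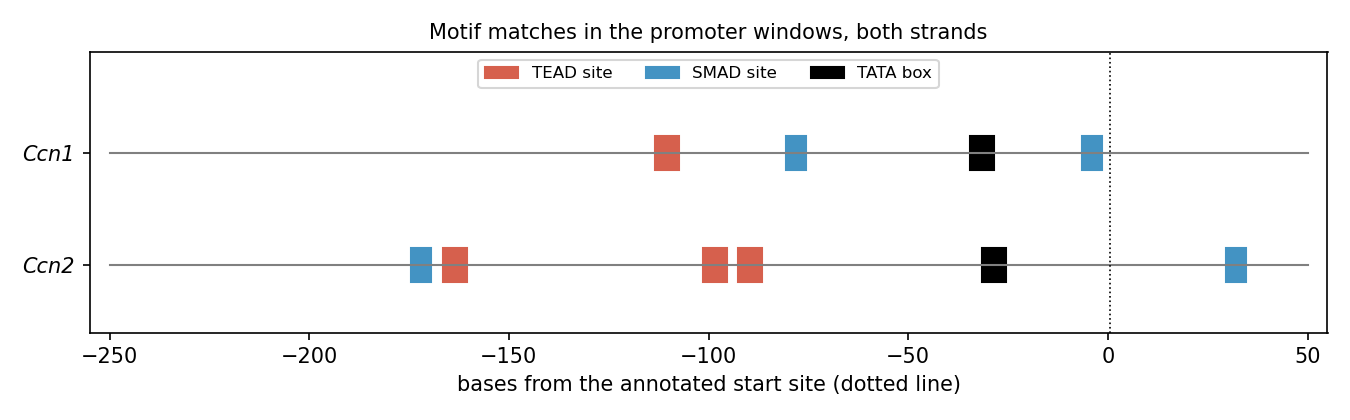
Letter matches in the promoter windows of Ccn1 and Ccn2, drawn to scale by distance in bases from the annotated start, with 1 marker per match and 1 colour per motif. Ccn2 carries 3 TEAD matches, 2 of them close together, and Ccn1 carries 1.

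Library totals lay between 10940685 and 14456186 counts. In 4 libraries, MI 2, 3 and 4 and MI_soft 4, between 10470 and 11785 genes had a count, against 12019 to 12820 in the others, and these 4 are called the low-detection libraries here. The deposited TPM (transcript abundance corrected for gene length) is used to compare the genes with each other. CPM, counts scaled to a common library size with TMM factors, is used to compare groups. Cardiomyocyte markers had counts in every group, with none of 11 at 0, and summed to 69076 to 82605 CPM in Sham against 19253 to 45496 CPM in the ligated groups.

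All 3 genes were higher after ligation, and they differed in how far. In MI against Sham, 3 of 3 rose, where 36.6% of tested genes were called in either direction and 20.2% were called higher. In MI_soft against Sham 3 of 3 rose, against 26.1% called and 16.4% called higher among all genes. In MI_stiff against Sham 2 of 3 rose, Ccn2 and Ccn5, against 21.2% called and 12.7% called higher. These 3 comparisons share the Sham libraries. Of all tested genes, 38.0% in MI, 40.9% in MI_soft and 38.4% in MI_stiff had CPM values that did not overlap with Sham. A gene was called at an adjusted p under 0.05 by the quasi-likelihood test of edgeR, after Benjamini-Hochberg adjustment for all 11376 genes. In bulk tissue, more cells of a type and more RNA per cell cannot be told apart.

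**Figure D2:**
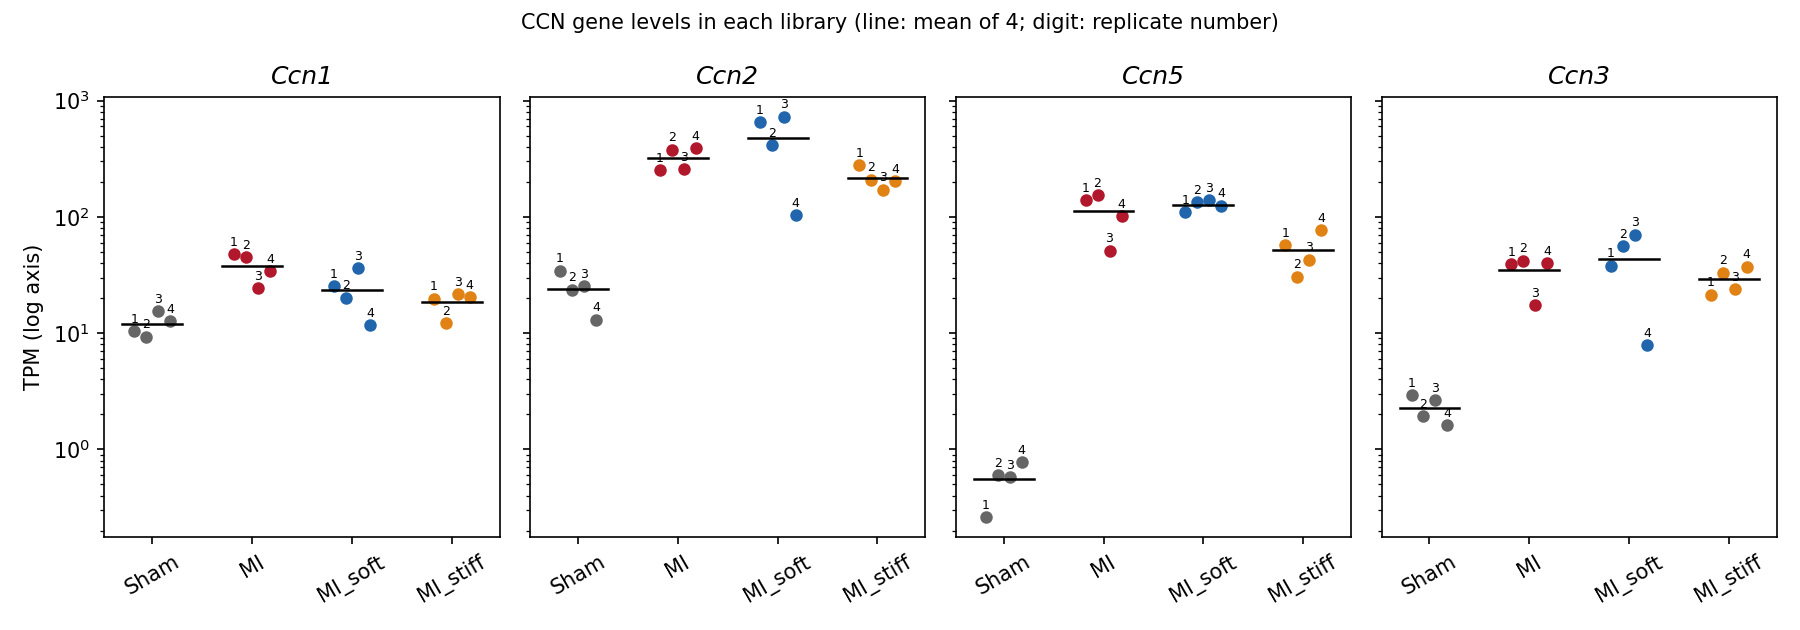
Deposited TPM of Ccn1, Ccn2, Ccn5 and, for comparison, the family gene Ccn3 on a shared log axis, 1 point per library with its replicate number and a bar at the group mean. Ccn5 lies below 1 TPM in all 4 Sham libraries and above 30 TPM in all 12 ligated libraries, while the Ccn1 groups lie closest together of the 4 genes.

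Ccn5 moved the most of the 3. Its level in Sham was 0.26, 0.60, 0.58 and 0.78 TPM, from 6, 15, 14 and 18 counts. MI libraries held 139.77, 152.93, 51.20 and 102.04 TPM, MI_soft libraries 110.53, 133.70, 140.23 and 125.09 TPM, and MI_stiff libraries 56.86, 30.68, 42.88 and 77.40 TPM. The gene was thus close to absent from Sham tissue and present in every ligated library, with no overlap. Mean levels were 1.10 ± 0.451 CPM in Sham, 211 ± 94.3 CPM in MI, 234 ± 57.6 CPM in MI_soft and 81.2 ± 25.7 CPM in MI_stiff (SD, n = 4 each). The difference from Sham was 7.58 ± 0.46 on the log2 scale in MI (SE, edgeR adjusted p = 2.15e-08), a 192-fold difference with a 95% interval of 6.62 to 8.54 in log2. In MI_soft it was 7.73 ± 0.46 (edgeR adjusted p = 8.81e-09) and in MI_stiff 6.21 ± 0.43 (edgeR adjusted p = 1.22e-07). By the size of its log2 difference Ccn5 ranked 10 of the 11376 tested genes in MI against Sham, and by p-value it ranked 1. The Sham level rests on few counts, so neither the fitted fold nor these ranks are exact.

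Ccn2 had the highest mean RNA level of the 3 in every group. Sham libraries held 34.37, 23.63, 25.52 and 13.08 TPM, and MI libraries 251.11, 378.37, 259.06 and 387.90 TPM. MI_soft libraries held 654.35, 412.05, 730.30 and 103.13 TPM, and MI_stiff libraries 277.28, 209.19, 171.82 and 202.49 TPM. Every ligated library lay above every Sham library, and MI_soft 4, a low-detection library, was the lowest of the 12 on this scale. Mean levels were 66.9 ± 23.2 CPM in Sham, 895 ± 368 CPM in MI, 1108 ± 547 CPM in MI_soft and 500.2 ± 184 CPM in MI_stiff (SD, n = 4 each). The log2 difference from Sham was 3.74 ± 0.46 in MI (SE, edgeR adjusted p = 1.25e-05), 4.05 ± 0.47 in MI_soft (9.39e-06) and 2.90 ± 0.44 in MI_stiff (0.000186). In folds these were 13.4, 16.6 and 7.47.

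Ccn1 moved least. Sham libraries held 10.43, 9.33, 15.53 and 12.60 TPM of it and MI libraries 47.74, 45.34, 24.41 and 34.23 TPM. The soft gel group MI_soft held 25.24, 20.21, 36.00 and 11.75 TPM, and MI_stiff 19.82, 12.25, 21.51 and 20.51 TPM. MI stood apart from Sham on this scale, while MI_soft 4 and MI_stiff 2 fell inside the Sham range. Mean levels were 27.2 ± 5.08 CPM in Sham, 83.7 ± 24.6 CPM in MI, 46.9 ± 13.0 CPM in MI_soft and 34.5 ± 8.07 CPM in MI_stiff (SD, n = 4 each). Ccn1 was 3.07-fold higher in MI than in Sham (log2 difference 1.62 ± 0.26, edgeR adjusted p = 0.000141). It was 1.72-fold higher in MI_soft (0.78 ± 0.25, edgeR adjusted p = 0.0302). That call was lost without any 1 of Sham 1, Sham 2, Sham 4, MI_soft 1, MI_soft 3 or MI_stiff 4, with log2 differences of 0.59 to 0.92 and adjusted p-values of 0.0124 to 0.103 over the 16 fits that each left out 1 library. In MI_stiff the log2 difference from Sham was 0.34, with a 95% interval of -0.19 to 0.87 (edgeR adjusted p = 0.373).

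Ccn3, formerly Nov, is the 1 other family gene with enough counts to test. It had 2.28 ± 0.616 TPM in Sham, 34.7 ± 11.7 TPM in MI, 43.1 ± 27.0 TPM in MI_soft and 29.0 ± 7.52 TPM in MI_stiff (SD, n = 4 each). Its log2 difference from Sham was 3.92 ± 0.47 in MI (edgeR adjusted p = 9.26e-06), 4.02 ± 0.47 in MI_soft and 3.37 ± 0.46 in MI_stiff. MI_soft 4 was its lowest ligated library, at 7.83 TPM, as it was for Ccn2. The 6 family genes together summed to 39.0 ± 8.97 TPM in Sham, 503 ± 116 TPM in MI, 669 ± 316 TPM in MI_soft and 315 ± 51.9 TPM in MI_stiff. Ccn2 made up between 46.5% and 71.5% of that sum in the Sham libraries and between 41.6% and 79.0% in the ligated libraries. Ccn1 went from 32.0 ± 10.2% of the family sum in Sham to 7.58 ± 1.69% in MI, and Ccn5 from 1.58 ± 0.929% to 21.6 ± 6.58%.

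The gels were compared with MI and with each other next, and here few genes of the whole table were called with all 16 libraries. These counts rest on single libraries: without MI 1 the genes called went from 3 to 1508 in MI_soft against MI, from 135 to 1253 in MI_stiff against MI and from 11 to 55 in MI_stiff against MI_soft. Without MI 4 the count in MI_stiff against MI was 11, and without MI_soft 4 it was 534. Ccn1 was lower in MI_stiff than in MI, by a log2 difference of -1.28 ± 0.25 (95% interval -1.82 to -0.74, edgeR adjusted p = 0.0255). The 4 MI libraries held 74.07, 112.8, 55.45 and 92.39 CPM and the 4 MI_stiff libraries 44.32, 25.98, 37.29 and 30.22 CPM. They did not overlap, as was so for 7.88% of all tested genes. Ccn1 was the 1 call among the 3 genes, where 1.19% of all genes were called, and it ranked 41 by p-value. The call was lost without MI 2 (adjusted p = 0.104), MI 4 (0.0878), MI_stiff 2 (0.0781), MI_stiff 3 (0.0692) or MI_stiff 4 (0.0815), and without the 4 low-detection libraries, 3 of which are in MI (log2 difference -1.10, adjusted p = 0.061). That last fit keeps 1 MI library, MI 1, which is assumed to vary like the libraries of the other groups. The direction was the same in all of those fits. Cardiomyocyte marker sums overlapped between MI (19253 to 30305 CPM) and MI_stiff (24332 to 30182 CPM), as did fibroblast marker sums (17669 to 26353 and 13824 to 21003 CPM). Their part in the Ccn1 difference was not tested.

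Ccn5 was at a lower mean in MI_stiff than in the other ligated groups, and neither difference passed the test. Against MI the log2 difference was -1.38 ± 0.33 (95% interval -2.08 to -0.68, edgeR adjusted p = 0.0512). MI 3, at 99.26 CPM, lay inside the MI_stiff range of 55.57 to 108.5 CPM, and the other MI libraries lay above it. Against MI_soft the difference was -1.53 ± 0.33 (95% interval -2.23 to -0.83, edgeR adjusted p = 0.068), and the groups did not overlap, since MI_soft held 171.3 to 309 CPM. Of all tested genes, 11.35% had no overlap between MI_stiff and MI_soft. Both Ccn5 differences lay near the threshold. Against MI, Ccn5 was called without MI 1 (0.0187, where 10.9% of all genes were called), MI 3 (0.0158) or MI_soft 4 (0.0235), and against MI_soft it was called without MI 3 (0.0321) and without the 4 low-detection libraries (0.0117).

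Ccn2 had a log2 difference of -0.84 ± 0.41 between MI_stiff and MI (95% interval -1.71 to 0.03, edgeR adjusted p = 0.308) and of -1.15 ± 0.42 between MI_stiff and MI_soft (95% interval -2.02 to -0.27, edgeR adjusted p = 0.228). The libraries overlapped in both comparisons, in the second through MI_soft 4, at 359.5 CPM against 1051 to 1585 CPM in the rest of its group. Without the 4 low-detection libraries Ccn2 was lower in MI_stiff than in MI_soft by -1.43 (edgeR adjusted p = 0.0313), and the difference from the 1 MI library then left, MI 1, was 0.0893. Among all genes, 0.0967% were called between MI_stiff and MI_soft, and 0 of the 3 genes were called by edgeR. At an unadjusted p under 0.05 there were 2, Ccn2 and Ccn5, and 1631 of all 11376 genes. DESeq2 called 1, Ccn5, and 2.88% of all genes it tested.

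Between MI_soft and MI, 0 of the 3 genes were called by edgeR and 0 by DESeq2, where 0.0264% of all genes were called by edgeR and 2.23% by DESeq2. Ccn1 had an unadjusted p under 0.05, as did 1761 of all 11376 genes. Its log2 difference was -0.84 (95% interval -1.37 to -0.31, edgeR adjusted p = 0.172). It was called without MI 1 (0.0359), a fit in which 13.1% of all genes were called. The interval for Ccn2 was -0.56 to 1.17 and for Ccn5 -0.54 to 0.84. Ordered by mean CPM, Ccn2 and Ccn5 ran from MI_soft through MI and MI_stiff to Sham, and Ccn1 from MI through MI_soft and MI_stiff to Sham. Neighbours in these orders did not differ past the threshold, except MI_stiff and Sham for Ccn2 and Ccn5. The 3 comparisons among ligated groups share libraries with each other in pairs.

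**Figure D3:**
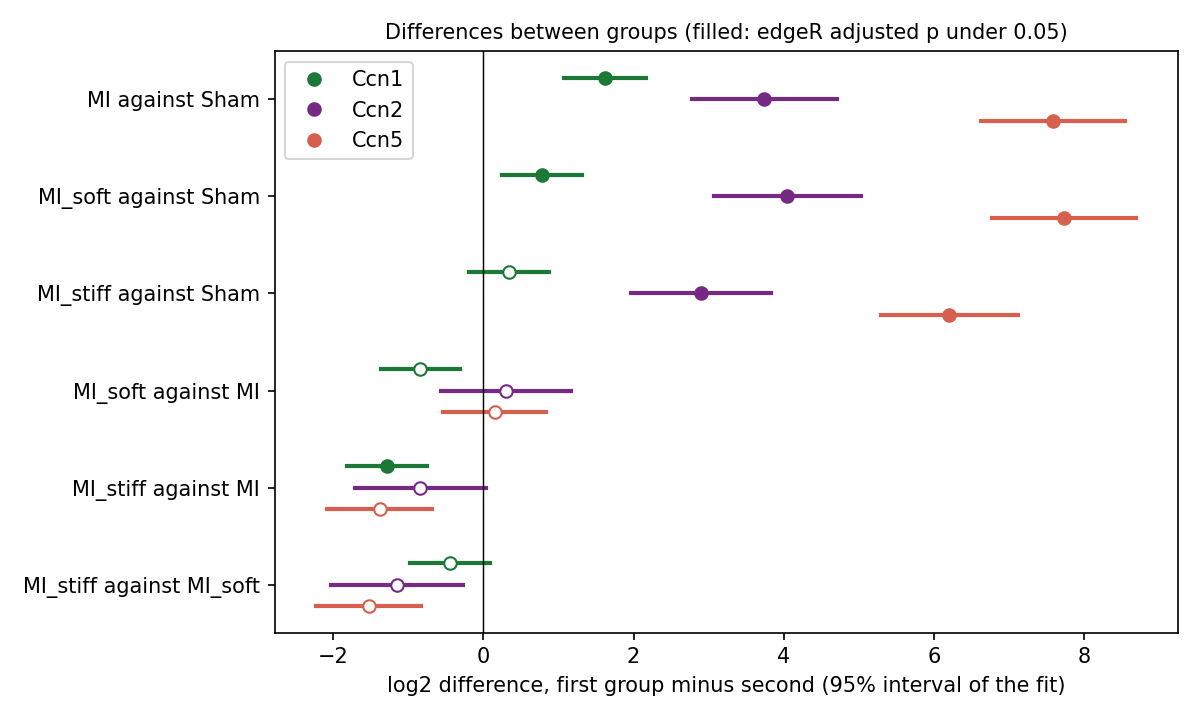
Fitted log2 differences of Ccn1, Ccn2 and Ccn5 for the 6 comparisons, with 95% intervals as bars and filled points for calls. The Ccn5 points lie farthest from 0 in the comparisons with Sham, and the comparison of MI_stiff with MI holds the 1 filled point among the ligated groups, Ccn1.

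Ratios of TPM within a library compare the genes without any scaling between libraries. The Ccn2 to Ccn1 ratio had a geometric mean, with 0.1 added to each TPM, of 1.94 for Sham, 8.50 for MI, 17.4 for MI_soft and 11.7 for MI_stiff. The Ccn5 to Ccn2 ratio had one of 0.0272 for Sham, 0.329 for MI, 0.336 for MI_soft and 0.232 for MI_stiff. Ccn5 in Sham, at 0.26 to 0.78 TPM, is close to the added 0.1, so the size of its Sham ratios depends on that amount. With other added amounts the log2 difference of MI from Sham was 2.36 to 3.83 for Ccn5 to Ccn2. For Ccn5 to Ccn1 it was 4.51 to 5.97. All 9 ratio differences from Sham were positive, with no overlap, each at p = 0.0286 in a 2-sided exact permutation test on the log2 ratio, the smallest p that 4 against 4 libraries can give (0.0468 after Benjamini-Hochberg adjustment over 18 tests).

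Between ligated groups, the Ccn5 to Ccn1 ratio was highest in MI_soft. MI libraries had ratios of 2.93, 3.37, 2.10 and 2.98, MI_soft libraries 4.38, 6.62, 3.90 and 10.7, and MI_stiff libraries 2.87, 2.50, 1.99 and 3.77. Every MI_soft library exceeded every library of the other ligated groups, by the least margin for MI_soft 3 over MI_stiff 4. The mean log2 ratio was 1.07 higher in MI_soft than in MI and lower in MI_stiff than in MI_soft, by a difference of -1.12, both at p = 0.0286 in the exact permutation test (adjusted 0.0468). That adjustment included the differences from Sham, all at the same p. MI_stiff and MI differed by -0.05 (exact permutation p = 0.857). Fits without 1 library were judged by an unadjusted p under 0.05, and no adjusted p was computed for them. Both differences were lost by that measure when some single libraries were left out. The difference between MI_soft and MI was lost without MI 1, 2 or 4 (exact permutation p = 0.0571 each) and without MI 3 (0.0857), at 0.93 to 1.16. The difference between MI_stiff and MI_soft was lost without MI_soft 2, MI_soft 4 or MI_stiff 1, 2 or 4 (exact permutation p = 0.0571 each) and without MI_stiff 3 (0.0857). Without MI_soft 4, which had the highest ratio, that difference was -0.83. The Ccn5 to Ccn2 ratio did not separate ligated groups, with exact permutation p-values of 0.971 for MI_soft and MI, 0.257 for MI_stiff and MI and 0.6 for MI_stiff and MI_soft. In MI_soft 4 alone Ccn5 exceeded Ccn2, with a ratio of 1.21 against 0.147 to 0.557 in the other 11 ligated libraries.

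**Figure D4:**
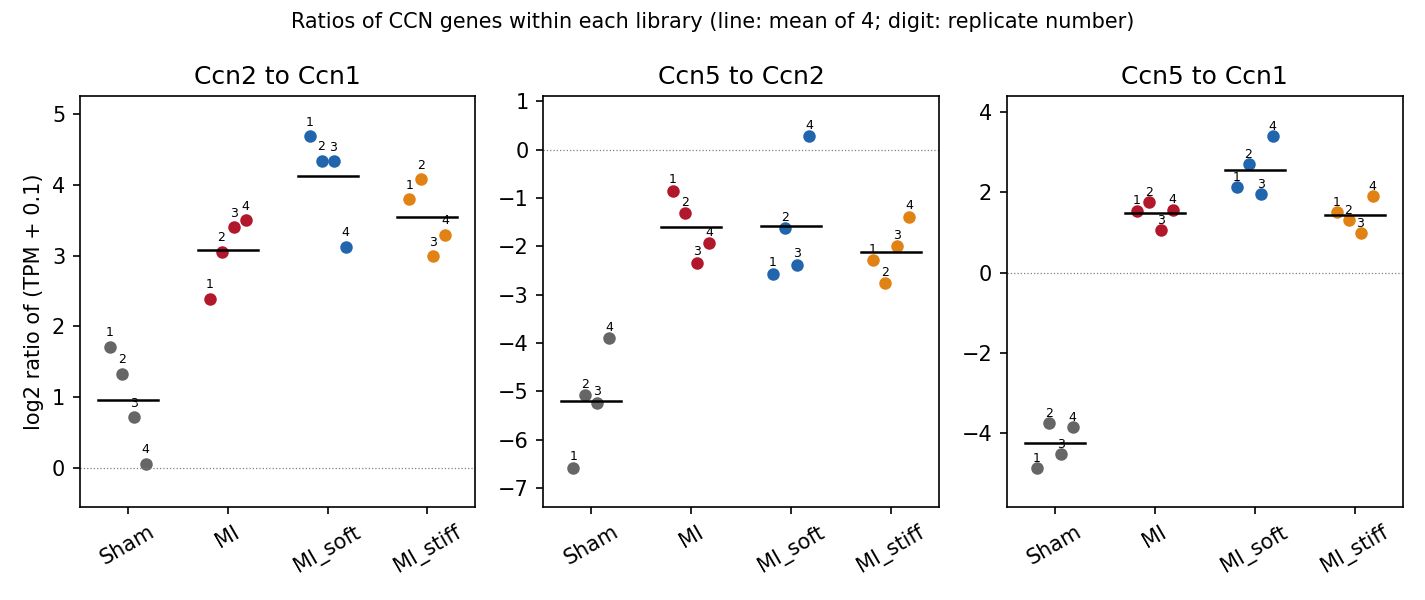
Within-library TPM ratios of the 3 genes on a log2 scale, 1 point per library with its replicate number and a bar at the group mean. Sham lies lowest in each panel, and the 4 MI_soft points lie above all MI and MI_stiff points for Ccn5 to Ccn1.

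The genes whose levels were most like each CCN gene across the 12 ligated libraries were different for the 3. Likeness was Pearson's r of log2 CPM among 7081 genes with a mean log2 CPM of at least 3, and it is a description, since the points share group differences and library quality. For Ccn1 the list held Fam222b (r = 0.875), Spata7 (0.873), Eef1a1, the elongation factor that carries tRNA to the ribosome (0.873), Egr1, an immediate early transcription factor (0.870), Rrp15 (0.861), Dusp1, a phosphatase of MAP kinases (0.861), Dynll1 (0.857) and Pagr1 (0.847). Egr1 had a mean of 20.7 CPM in Sham, 76.4 CPM in MI, 23.5 CPM in MI_soft and 23.9 CPM in MI_stiff. The MI libraries held 102.4, 127.4, 24.21 and 51.39 CPM of Egr1, so MI 3 lay within the range of the other groups. Dusp1 fell in MI_stiff against MI by 1.12 ± 0.21 on the log2 scale (edgeR adjusted p = 0.0191), while Egr1 had a difference of -1.67 (adjusted p = 0.0562). With group means removed, r with Ccn1 was 0.813 for Egr1, 0.797 for Fam222b and 0.412 for Dusp1, and lay between those of Dusp1 and Fam222b for the rest of this list.

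For Ccn2 the most alike genes were Serpine2, a secreted inhibitor of serine proteases (r = 0.937), Adarb1, an RNA editing enzyme (0.913), Itgbl1, an integrin beta-like secreted protein (0.895), Hnrnpc and LOC100911576 (0.869 each, with identical counts, so their reads cannot be assigned), the endoplasmic reticulum chaperone Hsp90b1 (0.857), Itga8, an integrin subunit of fibroblasts and smooth muscle (0.845), and Arf4 (0.826). With group means removed, r was 0.925 for Serpine2 and 0.802 to 0.924 for the other genes of the Ccn2 list. Serpine2 levels were 60.7 CPM in Sham, 254.5 CPM in MI, 261 CPM in MI_soft and 162 CPM in MI_stiff. It rose in MI against Sham by 2.07 ± 0.37 on the log2 scale (edgeR adjusted p = 0.000368).

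For Ccn5 the list held Rpl24, a ribosomal protein (r = 0.960), Nkd2, an inhibitor of Wnt signalling (0.948), Myl9 and Tagln, a myosin light chain and an actin-binding protein of contractile cells (0.943 each), Pfdn5 (0.936), Marveld1 (0.935), and Rps19 and Rps19l2 (0.930 each, with identical counts). Tagln had 25.4 CPM in Sham, 337 CPM in MI, 254 CPM in MI_soft and 93.8 CPM in MI_stiff. Myl9 had 60.2, 136, 137 and 39.1 CPM in the same order. Both fell in MI_stiff against MI, with log2 differences of -1.85 ± 0.41 for Tagln and -1.80 ± 0.40 for Myl9 (edgeR adjusted p = 0.0387 each), the comparison in which Ccn5 had -1.38. With group means removed, r with Ccn5 was 0.788 to 0.912 for the 8 genes. Without the low-detection libraries Tagln had -1.31 in MI_stiff against MI (adjusted p = 0.0645). None of the 3 CCN genes was on another's list. Over the 12 libraries Ccn1 and Ccn2 had r = 0.589 (Spearman's rho 0.608, permutation p = 0.0461 and 0.0398), Ccn1 and Ccn5 r = 0.619 (rho 0.559, permutation p = 0.0337 and 0.0634), and Ccn2 and Ccn5 r = 0.474 (rho 0.406, permutation p = 0.118 and 0.191). None passed adjustment over the 15 relations computed, where the lowest adjusted p was 0.146. Without the 2 libraries farthest from the median, r was 0.472, 0.445 and 0.325. With group means removed, Ccn2 and Ccn5 had r = 0.0216, and without MI_soft 4 they had r = 0.730.

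**Figure D5:**
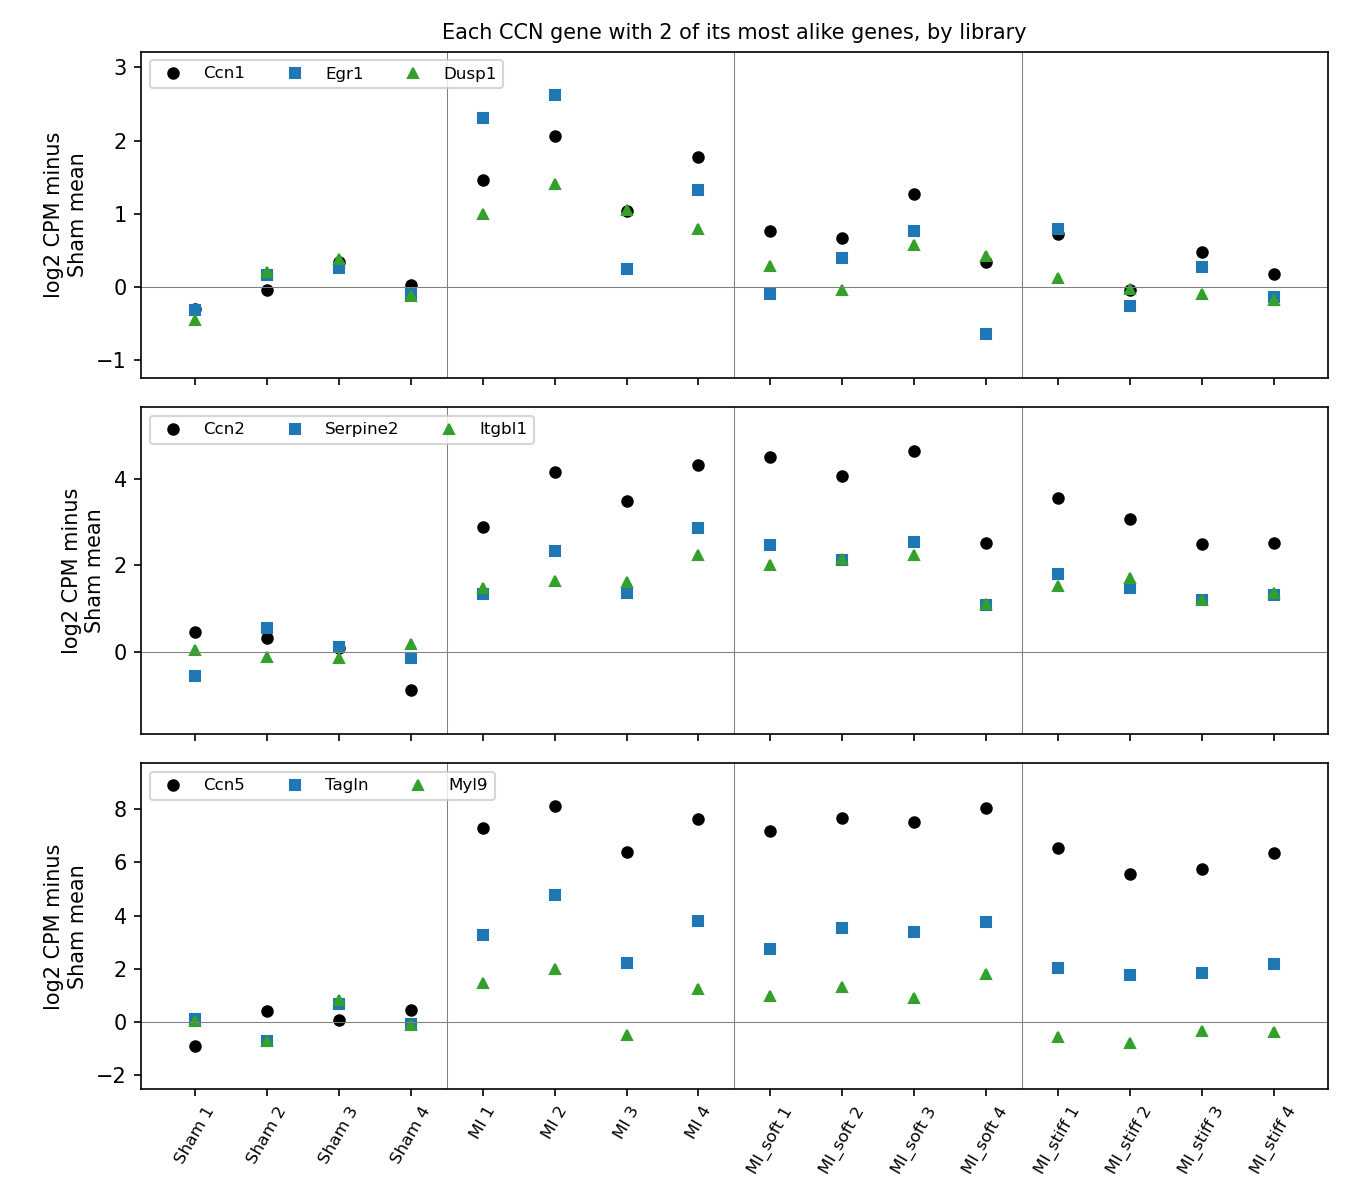
Log2 CPM minus the Sham mean in each of the 16 libraries for each CCN gene (black circles) and 2 of the genes most like it over the ligated libraries. Ccn1, Egr1 and Dusp1 have their highest group mean in MI, although MI 3 lies within the range of other groups for Ccn1 and Egr1. Ccn2 drops in MI_soft 4 together with Serpine2 and Itgbl1, and Ccn5 is lower on average in MI_stiff than in the other ligated groups, together with Tagln and Myl9.

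Genes that act around the CCN proteins were described by list. Of all tested genes, edgeR called 36.6% in MI against Sham, 20.2% of them all being called higher, and 1.19% in MI_stiff against MI. The counts of each list below are to be read beside these shares. Of 13 tested CCN receptors, 4 rose and 3 fell in MI against Sham, with a median log2 difference of 0.85 against 0.06 over all genes. Lrp1, an endocytic receptor of CCN2, rose by 1.29 ± 0.28 on the log2 scale, Itgb5 by 1.04 ± 0.19 and Sdc4, a heparan sulfate proteoglycan, by 0.94 ± 0.23 (edgeR adjusted p = 0.00162, 0.000451 and 0.00418). Itga6, a laminin receptor subunit that also binds CCN1, fell by 2.29 ± 0.64 (0.01). With the low-detection libraries removed and MI 1 alone left in MI, the log2 differences were -1.88 for Itga6, 0.70 for Sdc4, 0.99 for Itgb5 and 1.86 for Lrp1. In MI_stiff against MI, 1 receptor gene rose and 0 fell, Itgb2, the integrin beta subunit of leukocytes, by 2.82 ± 0.62 (edgeR adjusted p = 0.0387). Its difference from MI 1 alone, without the low-detection libraries, was 1.35 (adjusted p = 0.363).

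Of 15 TGF-beta pathway genes, 7 rose and 2 fell in MI against Sham, with a median of 0.39. The ligand Tgfb3 rose by 2.71 ± 0.28 on the log2 scale and the ligand Tgfb2 by 2.25 ± 0.51 (edgeR adjusted p = 2.36e-06 and 0.00276). The co-receptor Tgfbr3 fell by 2.41 ± 0.77 (edgeR adjusted p = 0.0213), and against MI 1 alone its difference was -0.99 (0.297). Tgfb3 was the 1 gene of the list called in MI_stiff against MI, where it fell by 1.18 ± 0.27 (edgeR adjusted p = 0.0391), from 219 ± 83.6 to 96.5 ± 24.7 CPM (SD, n = 4 each).

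Of 16 genes of the Hippo pathway and its TEAD partners, 2 rose and 3 fell in MI against Sham, with a median of -0.31, a share called that was not above the 36.6% of all genes. The 3 that fell were Mob1b, a kinase activator (log2 difference -4.27 ± 0.89), Yap1 (-2.22 ± 0.75) and Wwtr1, which encodes TAZ (-0.94 ± 0.28), at edgeR adjusted p-values of 0.00141, 0.0269 and 0.0148. Tead3, which encodes a TEAD factor, was among the 2 that rose (0.75 ± 0.20, edgeR adjusted p = 0.00723). Its difference from Sham with MI 1 alone in MI, without the low-detection libraries, was 0.45. Of 16 target genes of YAP and TAZ outside the CCN family, 8 rose and 2 fell, with a median of 0.95. Ccdc80, a matrix protein, rose by 2.89 ± 0.25 and Fjx1 by 2.12 ± 0.81 (edgeR adjusted p = 6.46e-07 and 0.0473), and Crim1, a membrane protein that binds BMPs, fell by 2.18 ± 0.55 (0.00567). In MI_stiff against MI, 0 of the 16 targets were called by edgeR and 1 by DESeq2, which called 4.67% of all genes it tested. The list median was -0.02. An unadjusted p under 0.05 was held by 2 of the targets and by 1938 of all 11376 genes. Ccn1 was called lower by edgeR in this comparison. Without the 4 low-detection libraries, with MI 1 alone in MI, the differences from Sham were -2.60 for Mob1b (edgeR adjusted p = 0.0147), -0.79 for Yap1 (0.328), -0.38 for Wwtr1 (0.441) and -1.22 for Crim1 (0.136).

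Of 13 genes in the pathway of SRF and its cofactors MRTF, regulators as well as targets, 4 rose and 4 fell in MI against Sham. In MI_stiff against MI 0 rose and 4 fell, Cnn1 (log2 difference -2.95 ± 0.66, edgeR adjusted p = 0.0391), Tpm2 (-2.88 ± 0.53, 0.0191), Tagln and Myl9, all of them parts of the contractile apparatus of smooth muscle cells and myofibroblasts. The list median in that comparison was -0.03, and 1.19% of all genes were called. Smooth muscle and pericyte marker sums were 1528 to 3727 CPM in MI, 2957 to 4955 in MI_soft and 1701 to 1872 in MI_stiff, with none of 8 at 0 in a group. The lowest sum in MI was that of MI 3, the library that was also lowest for Ccn5 within MI. The part of these cells in the Ccn5 levels was not tested.

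Among other matricellular genes 10 of 11 rose and 0 fell in MI against Sham, with a median of 2.20. Thbs4, a thrombospondin, rose by 7.09 ± 0.49 on the log2 scale, Spp1, which encodes osteopontin, by 6.04 ± 0.64, and Postn, periostin, by 5.26 ± 0.41 (edgeR adjusted p = 9.56e-08, 2.87e-06 and 2.03e-07). Ccn5, at 7.58, lay above each of these and Ccn2, at 3.74, below them. In MI_stiff against MI, Thbs4 fell by 2.25 ± 0.39 and Fbln1, a fibulin, fell by 0.94 ± 0.19, while Spp1 rose by 2.20 ± 0.51 (edgeR adjusted p = 0.0142, 0.0315 and 0.0423). In MI_soft against MI and in MI_stiff against MI_soft, edgeR called 0 genes of the lists named above, and DESeq2 called at most 4 of a list, those of the SRF list that were lower in MI_stiff than in MI_soft. At an unadjusted p under 0.05 these lists held 1 to 4 genes each in the first comparison and 0 to 5 in the second. Among all 11376 genes there were 1761 and 1631.

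Cell type markers also differed between MI and Sham, in both directions, where 36.6% of all genes were called and 20.2% were called higher. Fibroblast markers rose in 13 of 13 genes and summed to 4600 to 5472 CPM in Sham and 17669 to 26353 CPM in MI, and 11 of 11 myofibroblast and matrifibrocyte markers rose, from sums of 43.8 to 59.0 CPM to 896 to 1645 CPM. Of 11 cardiomyocyte markers 9 fell and 0 rose. Macrophage markers rose in 10 of 11, from sums of 173 to 212 CPM to 558 to 1701 CPM in MI, and in 6 without MI 1. No marker of these lists was at 0 in a whole group. Across the 12 ligated libraries the fibroblast marker sum had r = 0.588 with Ccn1, 0.171 with Ccn2 and 0.579 with Ccn5 (Spearman's rho 0.448, 0.0490 and 0.511, permutation p of r = 0.0458, 0.591 and 0.0488, all adjusted to 0.146 or more). Without the 2 farthest libraries these r were 0.545, 0.0887 and 0.458. With group means removed they were 0.183, 0.0230 and 0.739. In the same order, the cardiomyocyte marker sum had r = -0.582, -0.336 and 0.0243, and -0.655, -0.690 and -0.228 with group means removed. The macrophage sum had -0.455, -0.352 and 0.185, and then -0.0134, -0.647 and 0.467. The endothelial sum had 0.279, -0.289 and -0.076, and then -0.281, -0.324 and 0.173. No adjusted permutation p of r over all libraries was below 0.146. The part of cell composition in the CCN differences from Sham was not tested.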

How the data were processed

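Bulk RNA was sequenced from 16 libraries of infarct zone tissue, 4 per group. Groups and replicate numbers come from the sample titles and treatment labels. The authors deposited expected counts per gene and TPM for the same genes, made with STAR 2.7.3a and RSEM 1.3.1 on build rn7, per the submitters' processing notes. The annotation and the strand setting are not stated in these notes. The deposited expected counts held 0.785% fractional values, which were rounded. TPM sums were 964125 to 979120 per library, less than the unit's full total, so some genes lie outside the table.

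Genes were filtered with edgeR's filterByExpr, scaled with TMM, and tested with edgeR's quasi-likelihood test (version 4.0.16, R 4.3.3, robust option), where 16 libraries shared 1 fit and each group had its own coefficient. Benjamini-Hochberg adjustment covered 11376 genes, and a call needed an adjusted p below 0.05. The fit's common biological coefficient of variation was 0.403. CPM uses TMM-scaled totals, and log2 CPM a prior count of 2. Ratios used log2 of TPM plus 0.1 for the test and the group comparison. Correlations used 100000 permutations. The fit was tested on simulated counts. Library totals were 10940685 to 14456186 counts, and intervals are 95% intervals of the fit. The counts of 483 tested genes were identical to those of another gene, none of them Ccn1, Ccn2 or Ccn5.

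Alternatives were DESeq2 1.42.0, limma-voom (limma 3.58.1), other scaling factors, the low-count filter, the 2 groups alone, a replicate block, TPM on a log2 scale, fits without the 4 low-detection libraries, without the 13 mitochondrially encoded genes, and without each library in turn. Counts of list genes without the low-detection libraries or without MI 1 were added after seeing the data. The 3 genes, the gene lists and the tests were chosen with earlier results of these data known. Named list genes are up to 4 called genes per list with the largest difference in MI against Sham, plus list genes called between ligated groups; the most alike genes are the 8 with the highest r. A gene that the rule names is not reported here. Endothelial, lymphocyte, epicardial and skeletal muscle marker lists had 1, 0, 5 and 3 genes called higher and 1, 0, 0 and 1 called lower in MI against Sham, of 7, 9, 6 and 5 tested. Of all tested genes, 36.6% were called in that comparison.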

Additional observations from a re-analysis of the deposited data

Results flagged for a closer look

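The effects of the gels on the Ccn5 to Ccn1 TPM ratio differed from each other with all libraries in the test. Relative to MI, the mean log2 ratio was 1.07 higher in MI_soft and differed by -0.05 in MI_stiff, and the difference between these effects was -1.12 (exact permutation p = 0.0286, adjusted 0.0468 over 18 tests), with all 4 MI_soft libraries above all 4 MI_stiff libraries. MI drops out of that difference, so the test is that of MI_stiff against MI_soft given above. Its p is the smallest that 4 against 4 libraries can give, and the adjustment included the differences from Sham at this same p. Fits without 1 library were judged by an unadjusted p under 0.05, since no adjusted p was computed for them. By that measure the difference was lost without MI_soft 2, MI_soft 4 or any 1 MI_stiff library. Exact permutation p-values were then 0.0571 to 0.0857. The difference was smallest without MI_soft 4, at -0.83. The difference between MI_soft and MI was lost by the same measure without any 1 of the 4 MI libraries (exact permutation p = 0.0571 to 0.0857).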

How the results depend on the processing

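Ccn2 and Ccn5 stayed called higher than Sham in all 3 ligated groups under each of the 12 other settings and each of the 16 fits without 1 library. Other results moved, and the cause was not tested. Ccn5 in MI_stiff against MI was called by DESeq2 (log2 difference -1.35, adjusted p = 0.00571). Against MI_soft it was called by DESeq2 (-1.50, 0.00232), limma-voom (-1.55, 0.0496) and without the low-detection libraries (-1.36, 0.0117). Ccn1 in MI_stiff against MI was not called with the 2 groups alone (-1.27, 0.0986), without the low-detection libraries (-1.10, 0.061), on log2(TPM + 1) (-0.98, 0.134), on log2(TPM + 0.1) (-1.01, 0.148) or on log2(TPM + 1) without a filter (-0.98, 0.173). On the TPM scales Ccn1 in MI_soft against Sham was 0.83 (0.0661), 0.87 (0.0706) and, without a filter, 0.83 (0.0862). TPM also moved the median of all genes, by 0.20 in MI_stiff against Sham and 0.20 against MI at a pseudocount of 1, and by 0.26 and 0.29 at 0.1. Genes called higher and lower went from 1450 and 960 to 1845 and 423 in MI_stiff against Sham on log2(TPM + 1), and from 56 and 79 to 91 and 19 against MI. Without the low-detection libraries Ccn2 in MI_stiff against MI reversed to 0.0893 (0.942) and against MI_soft it was called (-1.43, 0.0313). In the same setting, the log2 ratio of Ccn5 to Ccn2 was 3.01 in MI_soft against Sham (exact permutation p = 0.0571) and 0.0803 in MI_stiff against MI_soft (0.857), and that of Ccn5 to Ccn1 was -0.83 in MI_stiff against MI_soft (0.0571).

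Leaving out 1 library gave ranges of 0.59 to 0.92 for Ccn1 in MI_soft against Sham, -1.03 to -0.65 in MI_soft against MI and -1.42 to -1.07 in MI_stiff against MI. For Ccn5 the ranges were -0.10 to 0.44 in MI_soft against MI, -1.60 to -1.06 in MI_stiff against MI and -1.70 to -1.36 in MI_stiff against MI_soft. For the log2 ratio of Ccn2 to Ccn1 in MI_soft against MI the range was 0.80 to 1.37. For Ccn5 to Ccn2 it was 3.01 to 4.06 in MI_soft and 2.63 to 3.52 in MI_stiff against Sham, -0.59 to 0.36 in MI_soft against MI and -0.87 to 0.0803 in MI_stiff against MI_soft. For Ccn5 to Ccn1 it was 0.78 to 1.27 in MI_soft against MI, -0.21 to 0.10 in MI_stiff against MI and -1.32 to -0.83 in MI_stiff against MI_soft. Ccn3 in MI_soft against MI reversed to -0.043 with limma-voom and ranged from -0.16 to 0.41 without 1 library. Correlations that changed sign were endothelial markers with Ccn1 (group means removed, -0.281), with Ccn2 (without the 2 farthest libraries, 0.205) and with Ccn5 (0.173 and 0.0705), and cardiomyocyte markers with Ccn2 (0.103) and Ccn5 (-0.228 and -0.0357). Without MI_soft 4, macrophage markers with Ccn5 changed to -0.0360 and cardiomyocyte markers with Ccn5 to -0.358.

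Libraries with the same replicate number had correlations of -0.285 to 0.176 with group means removed. In MI_stiff against MI_soft, 2 of 4 libraries were most like the one with their own number, and 0 in each other comparison. With 4 libraries a group these values cannot exclude that the numbers pair libraries, and the main fit treats them as unpaired. With a replicate block Ccn1 was -1.30 in MI_stiff against MI (0.0665) and 0.77 in MI_soft against Sham (0.056), and 34 genes in place of 135 were called in MI_stiff against MI and 3 in place of 11 against MI_soft. Genes called in MI_soft against MI, MI_stiff against MI and MI_stiff against MI_soft numbered 267, 586 and 259 by DESeq2.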

Other observations

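Ccn4, formerly Wisp1, a family gene of wound and bone matrix, had too few counts to be tested. Its counts were 2, 0, 2 and 0 in Sham, 6, 0, 0 and 3 in MI, 6, 4, 7 and 0 in MI_soft, and 10, 10, 9 and 5 in MI_stiff. It thus had its highest mean level in MI_stiff, 0.355 ± 0.0719 TPM (SD, n = 4), where Ccn1, Ccn2 and Ccn5 had their lowest ligated means. The libraries without a Ccn4 count among the ligated ones were MI 2, MI 3 and MI_soft 4, all low-detection libraries. Ccn6 had 1, 2, 7 and 5 counts in all over Sham, MI, MI_soft and MI_stiff.

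Lymphocyte marker sums were 42.7 to 307 CPM in MI_soft against 2.68 to 32.0 CPM in MI and 3.94 to 11.6 CPM in MI_stiff. Against Sham, 5 of 9 markers were called higher in MI_soft, where 16.4% of all genes were, and 0 of 9 in MI and MI_stiff. Compared directly, edgeR called 0 of the 9 between MI_soft and MI and 0 between MI_stiff and MI_soft. DESeq2 called 2 higher in MI_soft than in MI and 1 lower in MI_stiff than in MI_soft.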
